A study of Mus musculus with 6 samples.

Results

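The genes described are those of the mitogen-activated protein (MAP) kinase cascade and of the dual-specificity phosphatases (DUSP). They were taken by symbol from the platform's probe annotation, as every gene named Mapk, Map2k, Map3k, Map4k or Dusp followed by a number, with 1 probe set per gene. This gave 66 of the 18193 genes with a probe set of their own: 35 kinases (11 MAP kinases, 6 MAP2 kinases, 15 MAP3 kinases and 3 MAP4 kinases), 24 DUSP genes and 7 genes of related name that are no such kinase or phosphatase.

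MAP kinase signalling passes from kinase to kinase. A MAP4 kinase or a small GTPase activates a MAP3 kinase, which phosphorylates a MAP2 kinase, which in turn phosphorylates a MAP kinase of the ERK, JNK or p38 type on a threonine and a tyrosine. A subset of the DUSP proteins, the MAP kinase phosphatases, removes those phosphates, and several of their genes are switched on by the signal they end. In neutrophils these cascades carry signals from microbial sensors, cytokine receptors and chemoattractant receptors. The data are transcript levels and say nothing of phosphorylation.

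Gene expression was measured with Affymetrix 3' arrays in myeloid cells sorted from femur and tibia marrow of HdcGFP mice on a C57BL/6 background, in which green fluorescent protein reports Hdc, the gene of the histamine-making enzyme histidine decarboxylase. By their titles all cells were sorted as GFP-positive or GFP-high and positive for the myeloid integrin CD11b, and the Gr1 antigen divided them into Gr1lo (3 arrays) and Gr1hi (3 arrays). The description of Gr1lo replicate 3 can also be read as GFP-negative; Hdc stood at 10.99, 10.85 and 10.75 on the Gr1lo arrays and at 12.49, 12.52 and 11.99 on the Gr1hi arrays, and the sample was kept in the group of its title. No treatment and no age is labelled, and the labels give neither the construction of the reporter nor the animals behind each replicate. The p-values therefore cover the spread among these 6 samples alone, which may be technical. Values are log2 probe set values, and differences are Gr1hi minus Gr1lo, so that 1 stands for 2-fold. Fewer cells of a type and less RNA per cell cannot be told apart in such samples.

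All 6 arrays had high levels of the 10 neutrophil marker genes found of 11 listed, with list means from 12.55 to 12.96 in Gr1lo and from 13.86 to 13.91 in Gr1hi. The 8 markers of dividing neutrophil precursors had list means from 11.69 to 12.05 in Gr1lo and from 8.06 to 8.66 in Gr1hi, and 7 of the 8 fell. The 8 monocyte and macrophage markers found of 9 ranged in their list mean from 5.32 to 6.49 and from 6.02 to 7.13, none of them within the absent-transcript level in both groups, with Csf1r and Adgre1 called higher and F13a1 lower. The 8 T and NK cell markers had list means from 2.62 to 2.82 and from 3.51 to 3.58, with Cd3d at 4.32 and 8.49 on average, Cd3e and Cd3g within the absent-transcript level, and 5 of 6 tested called higher. Replicate 3 of both groups stood apart, with Xist at 10.95 and 10.14 against 2.43 or less on the other arrays, and with the basophil protease gene Mcpt8 at 7.44 and 7.74. The Y-linked gene Eif2s3y lay between 9.02 and 10.66 on all 6 arrays although every sample is labelled female. The part of these marker genes in the results was not tested. Without both replicate 3 arrays 14 kinases and 6 DUSP genes rose, and 7 and 2 fell, against 15, 6, 8 and 3 with them.

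Gr1hi cells held more transcript of 4 MAP kinase phosphatases, of the MAP4 kinase Map4k4 and of 7 MAP3 kinases led by Map3k3 and Map3k9, and less of the MAP3 kinases Map3k20 and Map3k4. Of the 66 genes 53 passed the filter on low values and 13 did not; 24 of the 53 rose and 12 fell at an adjusted p under 0.05. Over all 12739 genes tested, 24.6% rose and 31.8% fell, 56.4% in all, against 45.3% and 22.6% of the 53. Differences of at least 2-fold were found in 12 of those that rose and 6 of those that fell. The median difference was 0.27 over the 53 and 0.03 over all tested genes. Among genes above log2 5 on at least 3 arrays, 31 members remained, of which 19 rose and 7 fell, beside 33.8% and 43.9% of the 6990 genes at that level. A gene can pass this filter through the arrays of a single group, which fixes its direction beforehand. Dusp5, Dusp16 and Mapk8ip3 passed through Gr1hi alone. Map3k4, Map3k20, Map4k1, Mapk6 and Mapk8 passed through Gr1lo alone. The filter on low values can do the same to the 9 of the 66 genes with 1 group mean within the absent-transcript level. The balance depended on the scale. Subtracting from each array the median of its tested genes (median centring) moved the median difference of all genes to 0.70, and 22 of 31 kinases rose and 6 fell, and 14 of 17 DUSP genes rose and 0 fell. Setting the arrays level by their hybridization spike-ins (spike-in centring) moved it to -0.23, and 11 kinases and 4 DUSP genes then rose while 8 and 4 fell. Of all called genes 43.6% were higher as deposited, 78.3% under median centring and 27.7% under spike-in centring.

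**Figure D1:**
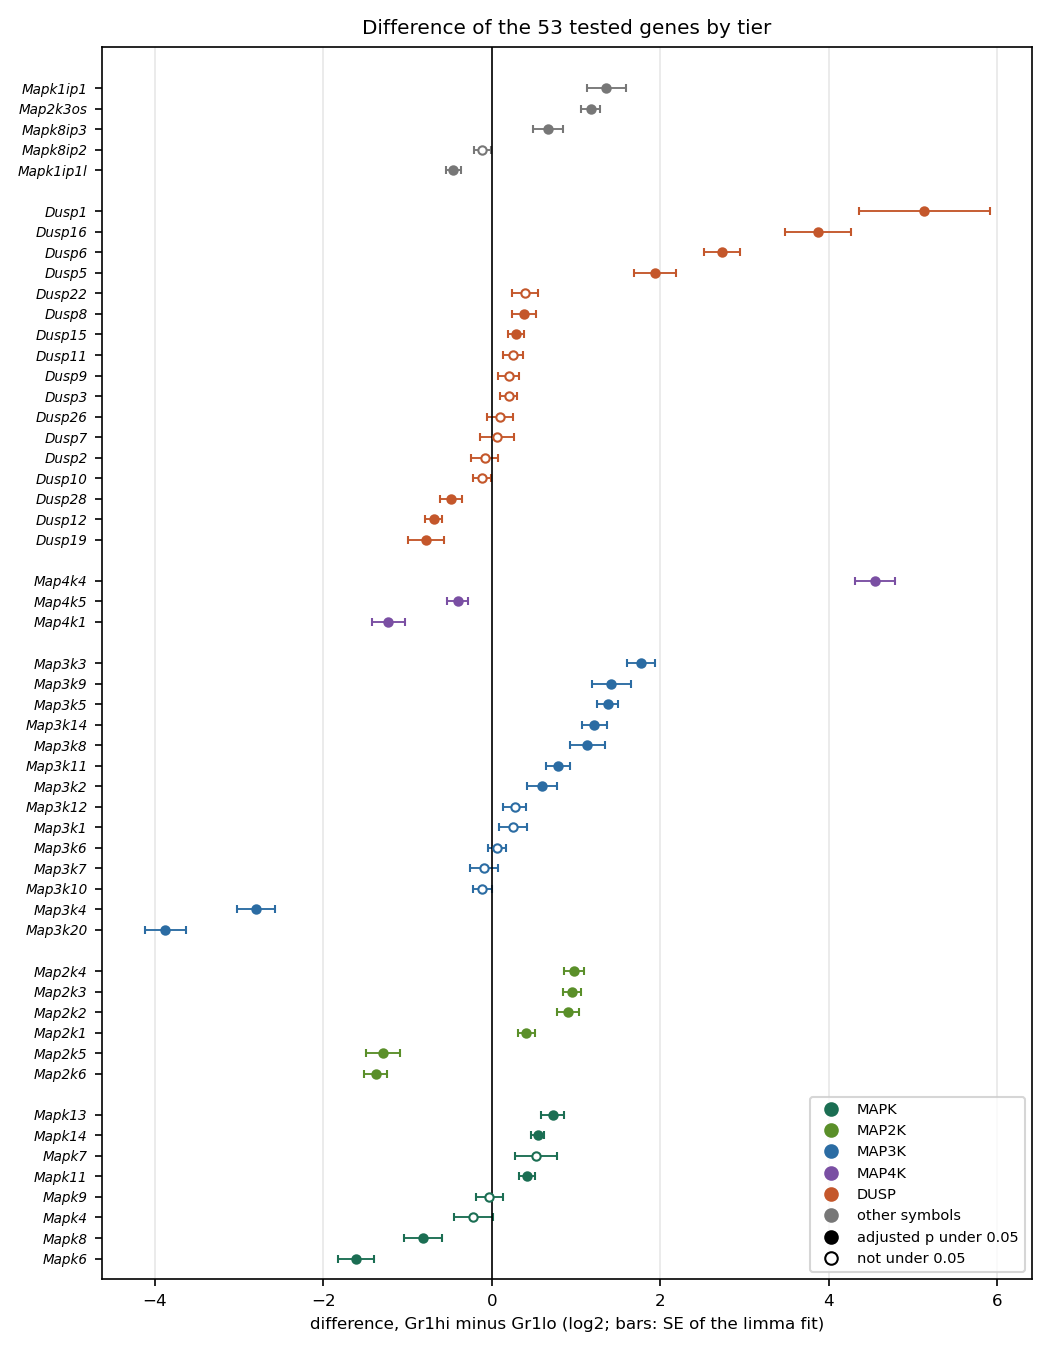
Difference between the groups (Gr1hi minus Gr1lo, log2, with the SE of the limma fit) for the 53 tested genes, ordered by size within each tier; filled points have an adjusted p under 0.05. Dusp1 (5.13) and Map4k4 (4.55) lie farthest to the right and Map3k20 (-3.88) and Map3k4 (-2.80) farthest to the left.

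By kind of enzyme, among 31 tested kinases 15 rose and 8 fell (74.2%), with a median difference of 0.41. Among 17 tested DUSP genes 6 rose and 3 fell (52.9%, close to the 56.4% of all tested genes), with a median of 0.20. Only 5 DUSP genes lay above log2 5 on at least 3 arrays, and 4 of them rose. Of these, Dusp5 and Dusp16 were above that level on Gr1hi arrays alone, so the filter itself fixed their direction. By tier, 3 of 8 MAP kinases rose and 2 fell, 4 of 6 MAP2 kinases rose and 2 fell, 7 of 14 MAP3 kinases rose and 2 fell, and 1 of 3 MAP4 kinases rose and 2 fell. The shares called were 62.5%, 100%, 64.3% and 100% in that order, and the median differences 0.19, 0.66, 0.43 and -0.41. The tiers were not tested against one another.

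The 4 phosphatase genes with the largest rises are Dusp1, Dusp16, Dusp6 and Dusp5, all of the MAP kinase phosphatase class. The 250 bases before their most upstream annotated start are shown because these genes moved together; they are RefSeq sequences of GRCm38.p6, 5′ to 3′ on the gene's strand. Capitals mark matches on either strand to the cyclic AMP response element (CRE) TGACGTCA, its core TGACG, the AP-1 site TGANTCA or the CArG box bound by serum response factor. A full CRE also counts as core matches on both strands.
Dusp1, chr17:26508473-26508722, minus strand: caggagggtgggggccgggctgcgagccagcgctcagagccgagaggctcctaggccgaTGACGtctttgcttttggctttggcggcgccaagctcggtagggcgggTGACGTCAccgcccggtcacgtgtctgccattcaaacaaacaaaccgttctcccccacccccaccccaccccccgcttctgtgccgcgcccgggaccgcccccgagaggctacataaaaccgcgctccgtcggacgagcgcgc
Dusp5, chr19:53528895-53529144, plus strand: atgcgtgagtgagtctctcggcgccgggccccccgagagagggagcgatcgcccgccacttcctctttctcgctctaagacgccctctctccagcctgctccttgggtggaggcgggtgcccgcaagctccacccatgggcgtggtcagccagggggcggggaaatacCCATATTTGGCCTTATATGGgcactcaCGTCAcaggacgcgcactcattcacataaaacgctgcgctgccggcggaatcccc
Dusp6, chr10:99262981-99263230, plus strand: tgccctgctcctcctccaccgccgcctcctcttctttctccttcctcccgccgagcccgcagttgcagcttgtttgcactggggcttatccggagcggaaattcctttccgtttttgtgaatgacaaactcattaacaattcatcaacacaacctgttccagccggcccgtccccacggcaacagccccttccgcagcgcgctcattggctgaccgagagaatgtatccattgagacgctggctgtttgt
Dusp16, chr6:134792629-134792878, minus strand: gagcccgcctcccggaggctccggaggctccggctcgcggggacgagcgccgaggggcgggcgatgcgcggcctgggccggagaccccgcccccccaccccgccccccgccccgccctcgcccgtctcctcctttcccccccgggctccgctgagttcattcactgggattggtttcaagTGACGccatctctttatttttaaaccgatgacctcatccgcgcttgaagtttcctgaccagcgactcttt

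The Dusp1 window held a full CRE that begins 143 bases before the start and a further core at 191 bases. The Dusp5 window held adjoining CArG boxes at 82 and 72 bases and a core at 55 bases, and the Dusp16 window a core at 70 bases. In the Dusp6 window none of these letters was found, which says nothing of the factors that act on the gene. Of 27025 windows of the same length, 17.8% held the core, 1.6% the full CRE, 6.85% the AP-1 site and 1.41% a CArG box. RefSeq windows were matched for 52 of the 66 genes, of which 19 held the core, 3 the full CRE, 3 the AP-1 site and 1, Dusp5, a CArG box. Among the 3 with a full CRE, Dusp8 rose by only 0.38 and Mapk10 was not above the absent-transcript level. A match is a description of letters and not a bound site.

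Dusp1 encodes a nuclear phosphatase of p38, JNK and ERK whose gene responds within minutes to stress and inflammatory signals. It stood at 9.80, 6.66 and 6.18 on Gr1lo replicates 1, 2 and 3 and at 13.17, 12.59 and 12.29 on the Gr1hi arrays. The groups did not overlap, but Gr1lo replicate 1 lay about 3 units above the other Gr1lo arrays. Dusp1 rose by 5.13 (SE 0.78, 35.1-fold, limma adjusted p = 0.000337). Without Gr1lo replicate 1 the difference was 6.26, and over all alternatives it ranged from 4.45 to 6.26. The early response genes Fos and Jun also varied among the Gr1lo arrays, though in another order, with Fos at 9.47, 9.80 and 7.51 and Jun at 4.28, 5.98 and 3.01. The part of this variation in the result was not tested.

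Dusp6 encodes a cytoplasmic phosphatase directed at ERK, and its transcript is a common readout of ERK signalling, which was not measured here. Its values were 8.49, 8.16 and 8.60 on the Gr1lo arrays and 10.83, 10.95 and 11.66 on the Gr1hi arrays. The groups lay far apart, with an SD of 0.23 in Gr1lo and 0.45 in Gr1hi. Dusp6 rose by 2.73 (SE 0.21, 6.64-fold, adjusted p = 5.02e-06). Dusp5, a nuclear phosphatase of ERK, stood at 3.44, 3.59 and 3.92 and at 5.24, 5.44 and 6.07, a rise of 1.94 (SE 0.25, 3.83-fold, adjusted p = 0.000109). In both genes replicate 3 was the highest array of each group.

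Dusp16 encodes a phosphatase directed at JNK and p38. It stood at 2.71, 2.85 and 1.87 on the Gr1lo arrays and at 6.29, 7.15 and 5.59 on the Gr1hi arrays. The Gr1lo mean of 2.48 was no higher than the absent-transcript controls, whose highest value was 2.77, which leaves the size of the rise dependent on the background. That rise was 3.87 (SE 0.39, 14.6-fold, adjusted p = 2.49e-05), and its other probe set rose by 0.87 (adjusted p = 0.00145 over all probe sets). The calls of Dusp1, Dusp5, Dusp6 and Dusp16 held under all 17 alternatives.

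Of the MAP kinase phosphatase class, 9 of 10 genes were tested, and 5 rose and 0 fell (0 also fell at an unadjusted p under 0.05 by limma, the tool used throughout). The share called was 55.6% of the 9, close to the 56.4% of all tested genes, of which 24.6% rose and 31.8% fell. Beside Dusp1, Dusp5, Dusp6 and Dusp16, Dusp8 rose (0.38, adjusted p = 0.0482). Its rise did not pass without Gr1lo replicate 1 (0.171) or 2 (0.123), or Gr1hi replicate 1 (0.0707), 2 (0.14) or 3 (0.0522). Dusp2, an inducible phosphatase of immune cells, read 2.93 ± 0.19 in Gr1lo and 2.84 ± 0.30 in Gr1hi (SD, n = 3 each), and Dusp4, a close relative of Dusp1, read 2.33 and 2.39, within the absent-transcript level in both groups. Dusp10 stood at 3.01 and 2.89, Dusp9 at 2.83 and 3.04, and Dusp7 at 4.44 and 4.50, with adjusted p of 0.356, 0.195 and 0.812. Dusp10 gave a small rise at its other probe set (0.31, adjusted p = 0.0364 over all probe sets).

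**Figure D2:**
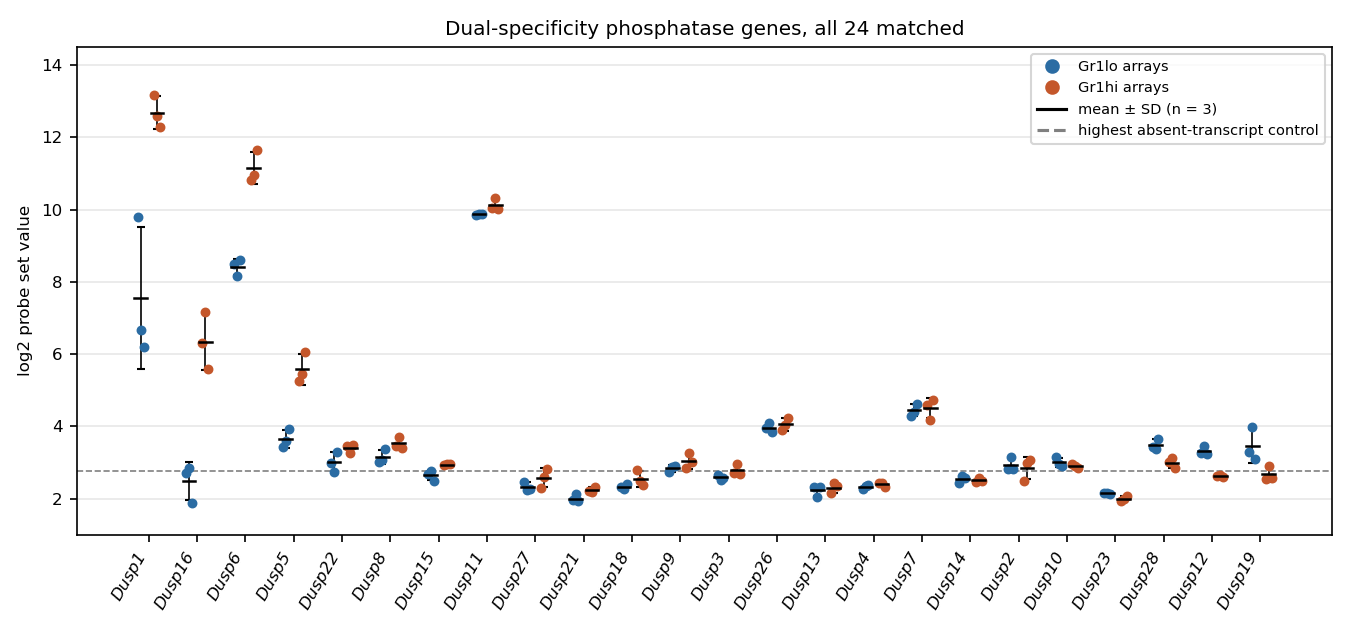
Log2 probe set values of the 24 DUSP genes on each of the 3 Gr1lo and 3 Gr1hi arrays, with mean and SD, ordered by difference; the dashed line is the highest value of the absent-transcript controls (2.77). Dusp1, Dusp16, Dusp6 and Dusp5 separate widely, Dusp11 is high in both groups, and most others lie near the dashed line.

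Atypical DUSP genes, whose products lack the MAP kinase binding region and mostly act on other substrates, had differences within 1 unit. Of 14 matched, 8 were tested, and 1 rose and 3 fell (50% called, beside 56.4% of all tested genes). Their differences ran from -0.78 to 0.39. The others, Dusp13, Dusp14, Dusp18, Dusp21, Dusp23 and Dusp27, had both group means within the absent-transcript level. Dusp19 stood at 3.29, 3.98 and 3.09 and at 2.55, 2.91 and 2.57, a fall of 0.78 on the log2 scale (SE 0.22, adjusted p = 0.012). Dusp12 read 3.26, 3.45 and 3.24 in Gr1lo against 2.63, 2.67 and 2.59 in Gr1hi (difference -0.69, SE 0.10, adjusted p = 0.000277). Its other tested probe set, with means of 2.87 and 3.05, was not called (0.18, adjusted p = 0.148 over all probe sets). Dusp28 read 3.42, 3.38 and 3.66 against 3.01, 3.13 and 2.85 (difference -0.49, SE 0.13, adjusted p = 0.00932). Gr1lo and Gr1hi arrays were separate in each of the 3, as in 65.5% of all tested genes. All values of the 3 are low, and the Gr1hi means of Dusp12 and Dusp19 lie within the absent-transcript level. Under median centring their differences were -0.11, -0.02 and 0.19, and none was called. Dusp15 rose by 0.29 (adjusted p = 0.0317), which did not pass without Gr1lo replicate 1 (0.0644) or 3 (0.127), or Gr1hi replicate 1 (0.0593), 2 (0.065) or 3 (0.068).

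Dusp11, a phosphatase of RNA 5′ ends, stood at 9.85, 9.88 and 9.89 in Gr1lo and in Gr1hi at 10.03, 10.33 and 10.02. The groups did not overlap, yet the difference of 0.25 did not pass (adjusted p = 0.091). Its other probe set read 8.46 and 9.75, a difference of 1.29 (adjusted p = 4.44e-05 over all probe sets). Dusp22, which acts on JNK signalling, was close to the threshold (0.39, adjusted p = 0.0554) and passed it without Gr1lo replicate 3 (0.0122). Its adjusted p ran from 0.000211 to 1 over 15 alternatives, and 9 of them left it uncalled.

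Map4k4, a kinase upstream of JNK that also acts on the cytoskeleton, had the largest rise of any kinase. It stood at 4.65, 4.18 and 5.10 on the Gr1lo arrays and at 9.05, 9.31 and 9.21 on the Gr1hi arrays. The gap between the groups was far larger than the spread within either. The rise was 4.55 (SE 0.24, 23.4-fold, adjusted p = 4.69e-07), and 3 further probe sets rose by 3.64 to 4.48. The remaining probe set, with means of 2.86 and 3.09, did not pass (0.24, adjusted p = 0.264 over all probe sets).

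Map4k1, a kinase of blood cells that restrains antigen receptor signalling, went the other way. Its values were 5.53, 5.50 and 5.11 in Gr1lo and 3.94, 4.19 and 4.32 in Gr1hi, a difference of -1.23 (SE 0.20, adjusted p = 0.000513). Map4k5 stood at 3.44, 3.74 and 3.51 and at 3.19, 3.16 and 3.12, a difference of -0.41 (SE 0.12, adjusted p = 0.0191). Its other tested probe set was not called (0.04, adjusted p = 0.778 over all probe sets). Map4k5 lost its call without Gr1lo replicate 2 (0.0618) or Gr1hi replicate 3 (0.0535), and its sign under median centring (0.27). Map4k1 and Map4k4 were called in the same direction under all 17 alternatives, though the filter at log2 5 fixed that of Map4k1 beforehand.

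Differences among the MAP3 kinases ran from -3.88 to 1.77. Map3k20, also known as ZAK, is a MAP3 kinase that senses stalled and colliding ribosomes. It read 8.54, 8.52 and 7.93 in Gr1lo and 4.62, 4.06 and 4.68 in Gr1hi. Every Gr1hi array lay over 3 units below every Gr1lo array. The difference was -3.88 (SE 0.24, 14.7-fold lower, adjusted p = 1.44e-06). A second probe set fell by 2.48 on the log2 scale, and another, with means of 2.77 and 2.80, did not pass (0.03, adjusted p = 0.892 over all probe sets).

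Map3k4, a MAP3 kinase of p38 and JNK that GADD45 proteins activate, fell as well. Its arrays read 7.24, 7.33 and 6.74 in Gr1lo and 4.39, 4.02 and 4.49 in Gr1hi, a difference of -2.80 (SE 0.23, 6.97-fold lower, adjusted p = 6.32e-06). All 4 of its probe sets were called lower, with differences from -2.80 to -0.51. Its activator genes moved the opposite way: Gadd45a stood at 8.94 ± 0.49 and 11.91 ± 0.23, and Gadd45g at 7.31 ± 0.62 and 9.52 ± 0.26.

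The 7 MAP3 kinases that rose did so by less. Map3k3, an activator of the ERK5, JNK and p38 branches, read 9.58, 8.91 and 9.33 in Gr1lo and 11.21, 10.98 and 10.94 in Gr1hi, a rise of 1.77 (SE 0.17, adjusted p = 1.67e-05). Map3k5, which encodes the oxidant-responsive kinase ASK1, read 9.80, 9.45 and 9.84 and then 11.12, 10.96 and 11.14, a rise of 1.37 (SE 0.12, adjusted p = 1.26e-05). Other probe sets of both genes rose by more, by 2.22 for Map3k5 and by up to 2.66 for Map3k3. On the probe sets used, all 3 Gr1hi arrays lay above all Gr1lo arrays in both genes, and Gr1lo replicate 2 was the lowest array.

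Map3k9, a mixed-lineage kinase upstream of JNK, stood at 6.72, 5.83 and 6.46 and at 7.89, 7.73 and 7.64 (difference 1.42, SE 0.24, adjusted p = 0.000605). Map3k14, which encodes NIK, the kinase of the non-canonical NF-kB pathway, stood at 3.05, 2.75 and 3.13 and at 4.10, 4.27 and 4.22 (difference 1.22, SE 0.15, adjusted p = 7.49e-05). Map3k8, which encodes TPL2, the kinase that links toll-like receptors to ERK, rose by 1.13 (7.29 ± 0.35 to 8.42 ± 0.23, SD, n = 3 each, adjusted p = 0.00106). Map3k11 rose by 0.78. Map3k2 rose by 0.59 (adjusted p = 0.018), which did not pass without Gr1hi replicate 1 (0.0602) or 3 (0.0719), or under spike-in centring (0.203).

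Map3k7, which encodes TAK1, the shared kinase of the interleukin-1 and toll-like receptor pathways, did not pass. It read 6.57, 6.81 and 6.62 in Gr1lo and 6.57, 6.64 and 6.49 in Gr1hi (difference -0.10, SE 0.17, adjusted p = 0.647), and none of its 4 tested probe sets passed. Map3k1 (0.25), Map3k12 (0.27), Map3k6 (0.06) and Map3k10 (-0.11) did not pass either. Map3k1 gave a rise of 0.75 at its other probe set, which read 2.70 and 3.46 (adjusted p = 0.000567 over all probe sets).

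Map2k3 and Map2k6 encode MAP2 kinases that both activate p38, and their transcripts went opposite ways. Map2k3 read 9.79, 9.78 and 9.72 in Gr1lo and 10.76, 10.86 and 10.52 in Gr1hi, a rise of 0.95 (SE 0.11, adjusted p = 6.75e-05). Map2k6 read 4.03, 3.91 and 3.96 and then 2.82, 2.42 and 2.53, a difference of -1.38 (SE 0.13, adjusted p = 2.01e-05). With a Gr1hi mean of 2.59, Map2k6 was there at the absent-transcript level, and the size of its fall depends on the background. Map2k3os, the opposite-strand transcript listed for Map2k3, rose too, from 2.50 ± 0.15 to 3.67 ± 0.06 (adjusted p = 1.84e-05).

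Map2k4, an activator of JNK, read 9.41, 9.37 and 9.27 and then 10.16, 10.49 and 10.34, a rise of 0.98 (SE 0.12, adjusted p = 7.39e-05). Map2k5, the activator of ERK5, fell: it read 7.56, 7.12 and 7.20 in Gr1lo and 6.12, 6.13 and 5.76 in Gr1hi (difference -1.29, SE 0.20, adjusted p = 0.000362). In neither gene did the arrays overlap. Map2k5 was also called lower at further probe sets (-1.54 and -0.46), but not at another (-0.24, adjusted p = 0.254 over all probe sets). Mapk7, which encodes ERK5 itself, read 5.64 ± 0.39 and 6.17 ± 0.29 and did not pass (0.53, adjusted p = 0.0996).

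The activators of ERK, Map2k1 and Map2k2, were both higher in Gr1hi. Map2k1 read 10.63, 10.59 and 10.79 and then 11.04, 11.19 and 11.00 (difference 0.41, SE 0.10, adjusted p = 0.00528). Map2k2 read 7.52, 7.51 and 7.58 and then 8.50, 8.43 and 8.38 (difference 0.90, SE 0.13, adjusted p = 0.000267). Under spike-in centring Map2k1 differed by 0.15 and was not called. No MAP2 kinase changed its sign with the scaling.

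Of the MAP kinases, the p38 genes Mapk14 and Mapk13 rose, Mapk11 rose from within the absent-transcript level, and Mapk8 and Mapk6 fell. Mapk14, which encodes p38 alpha, read 11.71, 11.52 and 11.55 in Gr1lo and 12.19, 12.10 and 12.14 in Gr1hi. The difference was 0.54 (SE 0.08, 1.46-fold, adjusted p = 0.000289), and its 4 other tested probe sets were called higher by 0.55 to 1.32. Mapk13, which encodes p38 delta, read 10.88, 10.43 and 11.00 and then 11.40, 11.52 and 11.55 (difference 0.72, SE 0.14, adjusted p = 0.0017). Mapk11 (p38 beta) read 2.33, 2.43 and 2.56 and then 2.84, 2.95 and 2.78 (0.42, SE 0.09, adjusted p = 0.00379). Its Gr1lo mean lay within the absent-transcript level. Mapk11 can have passed the filter on low values through its Gr1hi arrays alone, which would fix its direction beforehand. Mapk12 (p38 gamma) lay within that level in both groups and was not tested. Under spike-in centring Mapk14 and Mapk11 differed by 0.29 and 0.16 and were not called.

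Among the JNK genes, Mapk8, which encodes JNK1, read 5.02, 5.16 and 5.07 in Gr1lo and 4.60, 3.83 and 4.38 in Gr1hi (difference -0.82, SE 0.22, adjusted p = 0.0105), with no overlap. Of its 3 other tested probe sets 1 was called, lower by 1.31 on the log2 scale. Under median centring Mapk8 showed a difference of -0.14 and was not called. Mapk9, which encodes JNK2, read 7.69, 7.63 and 7.92 and then 7.82, 7.50 and 7.84 (difference -0.03, SE 0.16, adjusted p = 0.889), and its groups overlapped. Mapk10, the JNK of the nervous system, lay within the absent-transcript level. Whether Mapk8 and Mapk9 differ in their change was not tested.

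Mapk6, which encodes the atypical kinase ERK3, had the largest fall of the MAP kinases. It read 5.96, 6.45 and 6.17 in Gr1lo and 4.30, 4.70 and 4.75 in Gr1hi, again without overlap. The difference was -1.61 (SE 0.21, 3.06-fold lower, adjusted p = 0.000147). Of its 3 other tested probe sets, all with means under 4, 1 was called lower (-0.33) and the others were not called. Its relative Mapk4 stood at 4.09 ± 0.37 and 3.87 ± 0.32 (adjusted p = 0.442).

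**Figure D3:**
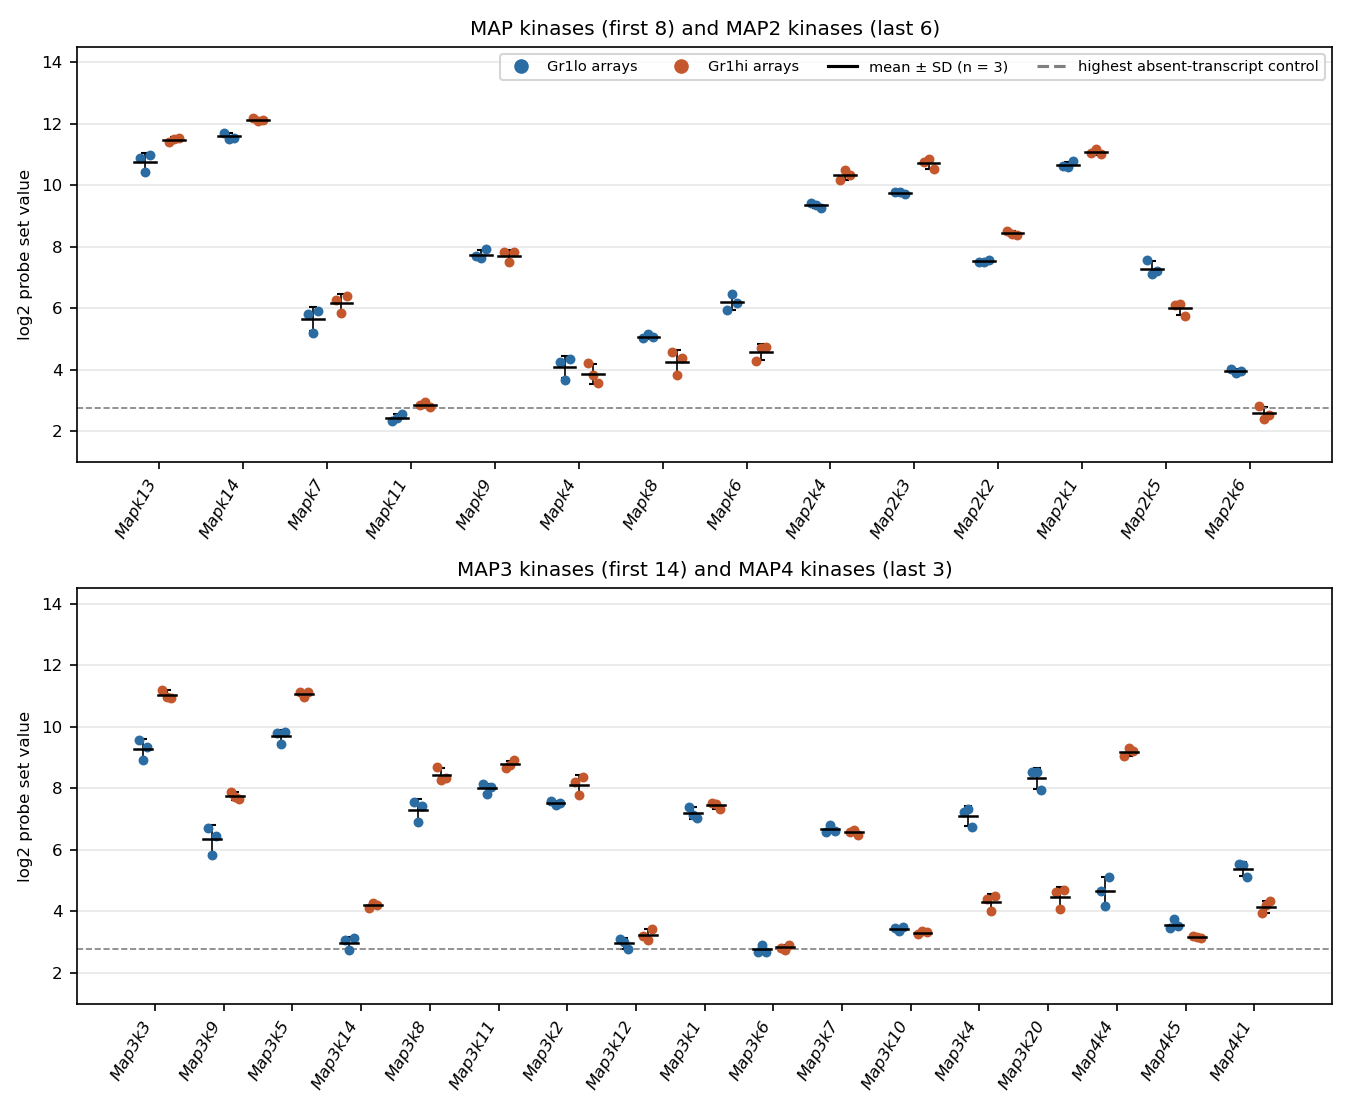
Log2 probe set values of the 31 tested kinase genes on each of the 3 Gr1lo and 3 Gr1hi arrays, with mean and SD, by tier and ordered by difference within a tier; the dashed line is the highest value of the absent-transcript controls (2.77). Map4k4 rises from 4.64 to 9.19 on average, Map3k20 and Map3k4 fall, and the p38 genes Mapk13 and Mapk14 are high in both groups.

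Among the genes of related name, Mapk1ip1, whose product binds MAP kinase, rose by 1.36 (5.98 ± 0.08 to 7.34 ± 0.45, adjusted p = 0.000777). Mapk8ip3, a JNK scaffold and motor adaptor, rose by 0.67 (adjusted p = 0.00923), which did not pass under spike-in centring. The scaffold gene Mapk8ip1 lay within the absent-transcript level. Mapk8ip2 stood at 3.06 and 2.94 and was not called, while another of its probe sets was called higher (0.32, adjusted p = 0.0169 over all probe sets). Mapk1ip1l fell at the probe set used (-0.46, adjusted p = 0.00171), read 0.35 higher in Gr1hi at its other probe set (adjusted p = 0.122 over all probe sets), and turned to 0.22 under median centring.

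The 66 genes had 149 probe sets. Of 28 genes with at least 2 tested probe sets, 16 gave the same call at each of them, 12 gave a call at some and none at others, and 0 gave opposite calls.

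**Figure D4:**
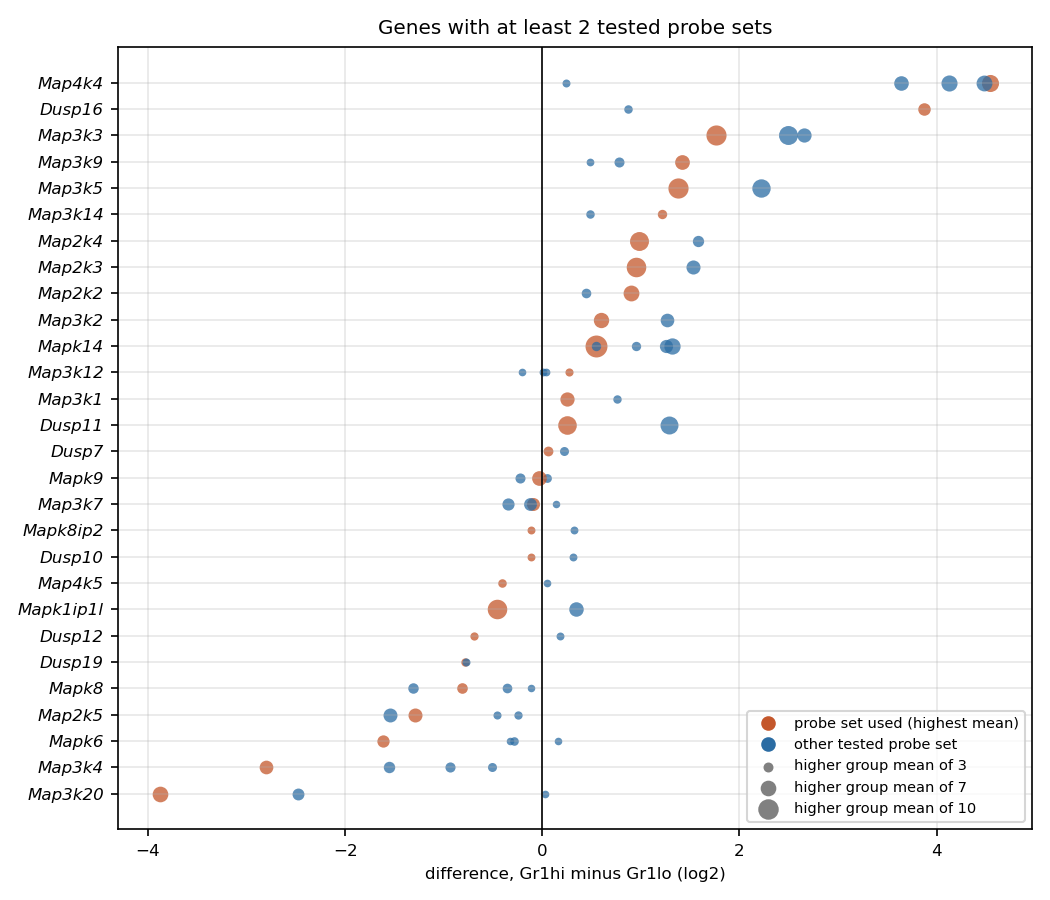
Difference (Gr1hi minus Gr1lo, log2) of every tested probe set of the 28 genes with at least 2 of them; red marks the probe set used and larger points have a higher group mean. The probe sets of Map4k4, Map3k3, Map3k4 and Mapk14 lie on the same side of 0, while Dusp11, Dusp16 and Map3k20 have probe sets that differ widely in size.

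Other genes of the pathway were listed by role. Of 78 tested, 39 rose and 11 fell (64.1%, beside 56.4% of all genes). These are 50% and 14.1%, against 24.6% and 31.8% of all tested genes. At the Ras and Raf step 8 of 16 rose and 2 fell (62.5% called). The latter were Spry2 (-0.83, adjusted p = 0.0307) and Spred1 (-0.63, adjusted p = 0.0166), named after their values were seen. Those that rose include Rasgrp4, a Ras activator of myeloid cells (3.58 ± 0.11 to 6.42 ± 0.17, adjusted p = 1.56e-06), the kinases Braf (by 1.45) and Araf (by 1.06), and Sos2 (by 0.93). Araf was not called with the mean of its probe sets (0.27, adjusted p = 0.101). Of 16 scaffolds and adaptors 10 rose and 2 fell (75% called). Beside Gadd45a (by 2.98) and Gadd45g (by 2.22) the arrestin gene Arrb1 rose by 1.51, whereas Pebp1, which encodes an inhibitor of Raf, fell from 10.61 ± 0.32 to 7.72 ± 0.17 (adjusted p = 1.13e-06).

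Downstream kinases were mixed, with 2 of 7 higher and 2 lower (57.1% called, close to the 56.4% of all tested genes). Mknk1, which phosphorylates the translation factor eIF4E, rose from 7.74 ± 0.27 to 9.78 ± 0.04 (adjusted p = 3.98e-06). Mapkapk5 rose by 0.43, and Mapkapk3 and Rps6ka5 differed by -0.47 and -0.45. Rps6ka5 lost its call without Gr1lo replicate 1 (0.0665) or 3 (0.0543) or Gr1hi replicate 2 (0.0559), and both had the opposite sign under median centring (0.21 and 0.22 for Mapkapk3 and Rps6ka5). Among 7 kinases of the cascade named outside the numbering, Taok1 rose by 0.93 and Nlk by 0.48 (28.6% called). Nlk lost its call without Gr1lo replicate 3 (0.0509) or Gr1hi replicate 1 (0.0644) or 3 (0.0543). Under spike-in centring Mapkapk5 and Nlk differed by 0.18 and 0.22 and were not called.

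Of 9 phosphatases outside the DUSP numbering 1 rose and 4 fell (55.6% called, close to the 56.4% of all tested genes). Ppp5c, which encodes a phosphatase of Raf and ASK1, fell from 6.80 ± 0.25 to 5.02 ± 0.39 (adjusted p = 0.00017). Styx, which encodes a pseudophosphatase that binds ERK, fell by 1.14 on the log2 scale. Ptprr differed by -0.58, a sign that turned under median centring (0.10), and Ppm1a rose by 0.39, a call lost under spike-in centring (0.13).

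Of 23 tested transcription factor and RNA-binding protein targets 16 rose and 1 fell, Atf4 (-0.53), named after its value was seen. These are 69.6% and 4.35%, beside 24.6% and 31.8% of all tested genes. Among those that rose, Egr1, Atf3 and Elk1 had Gr1lo means within the absent-transcript level. They can have passed the filter through Gr1hi alone, which would fix their direction beforehand. Fosb, Fosl1 and Egr3, within that level in both groups, were not tested. Zfp36l1, an RNA-binding protein that MAP kinase-activated kinases phosphorylate, rose from 3.52 ± 0.56 to 9.61 ± 0.32 (adjusted p = 3.28e-07). Junb, Fos and Jund, subunits of AP-1, rose by 4.48, 3.66 and 3.30. The list's median difference was 1.09, beside 0.36 over all 78 pathway genes and 0.03 over all tested genes.

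**Figure D5:**
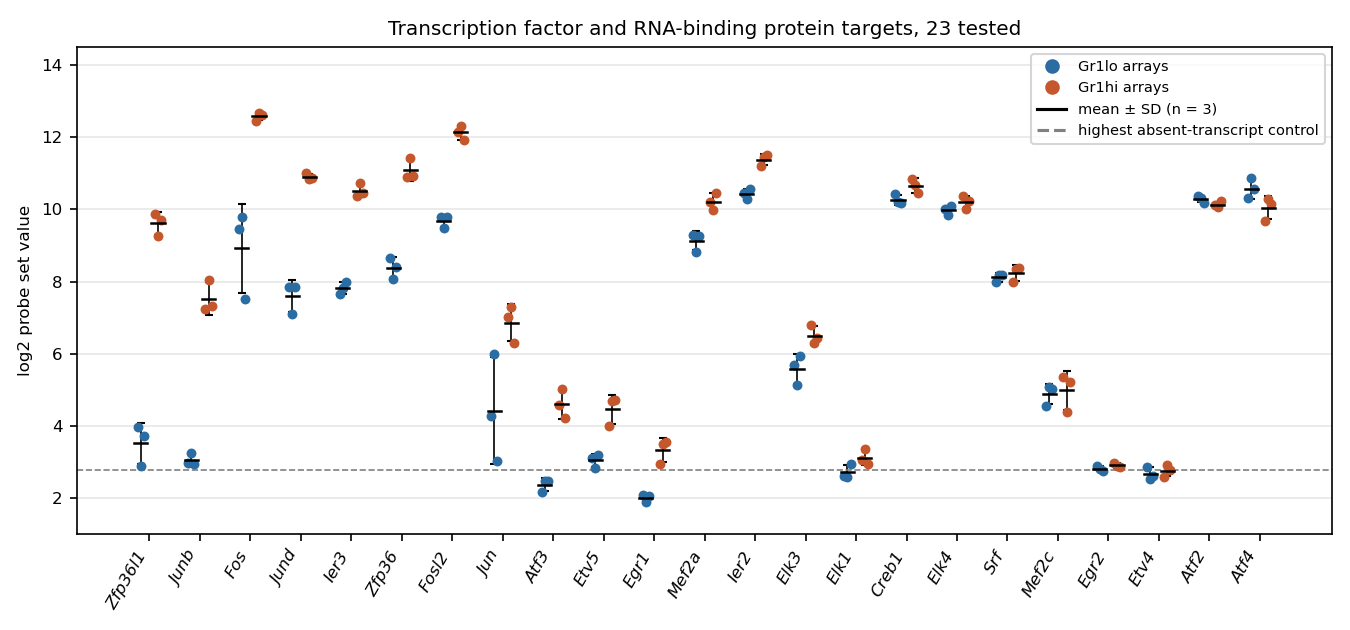
Log2 probe set values of the 23 tested transcription factor and RNA-binding protein target genes on each of the 3 Gr1lo and 3 Gr1hi arrays, with mean and SD, ordered by difference; the dashed line is the highest value of the absent-transcript controls (2.77). Zfp36l1, Junb, Fos and Jund separate most, and Fos (9.47, 9.80 and 7.51) and Jun (4.28, 5.98 and 3.01) vary among the Gr1lo arrays.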

How the data were processed

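RNA of 6 sorted samples was hybridized to Affymetrix arrays (labels' protocols). What the authors deposited is 1 log2 value per probe set and array, summarised by GCRMA according to the submitters' processing notes, in a version not given in the sources. GCRMA subtracts a sequence-based background and equalizes array distributions, so low values cluster near a floor. The 45101 probe sets had no detection calls, and 3 control probe sets of an absent transcript (highest value 2.77) marked that floor.

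Of the probe sets 34945 had 1 symbol, 932 several and 9160 no gene listed, besides 64 controls. Where a gene had several, the one of highest mean across all arrays was taken. Genes above their array's 40th percentile on at least 3 arrays (12739) were tested in R 4.3.3 by limma 3.58.1 (two-sided, eBayes with an intensity trend, Benjamini-Hochberg over all tested genes, threshold 0.05). The median SD between replicates was 0.151 and 0.153, and the number of arrays limits the precision. The fit was tested on simulated data. Motifs and figures were made with Python 3.11.15.

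The genes and lists were chosen with earlier results of these data known. Values on all arrays are given for up to 4 called genes per tier and direction with the largest difference and for Mapk8, Mapk9, Mapk14, Map2k1 to Map2k6, Dusp1 and Dusp6. In each pathway list up to 4 called genes are named; Map3k7, Dusp11, the early response genes beside Dusp1 and the genes of related name were chosen after their values were seen. Alternatives were other filters, the mean of probe sets, eBayes without the trend, repeated quantile normalization, 2 centrings, a test against a 1.5-fold change, a replicate block, both replicate 3 arrays left out, and each array left out.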

Additional observations from a re-analysis of the deposited data

How the results depend on the processing

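Of the kinases that rose 8 of 15, and of those that fell 6 of 8, kept call and direction under every alternative that tested them. Of the DUSP genes 4 of 6 and 0 of 3 did. A filter that a gene passed through 1 group alone could not change its direction, so there the agreement carries no weight. With each array left out in turn, 14 to 15 kinases rose and 7 to 8 fell, 4 to 6 DUSP genes rose and 3 to 3 fell, and 35 to 37 pathway genes rose and 8 to 10 fell. Filters at the 60th percentile and at log2 5 left 0 DUSP genes called lower each, because Dusp12, Dusp19 and Dusp28 were then not tested. The test against a 1.5-fold change left 8 kinases higher, 0 DUSP genes lower, and 22 pathway genes higher and 3 lower, by its construction. Under median centring 14 DUSP genes were higher and 0 lower, and 66 pathway genes higher and 3 lower; under spike-in centring 18 pathway genes were lower. The cause of the gap between the centrings was not tested.

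Signs turned as follows. Median centring gave Dusp2 0.59, Dusp10 0.56, Dusp28 0.19, Map3k7 0.58, Map3k10 0.56, Map4k5 0.27, Mapk9 0.645, Mapk4 0.45, Mapk8ip2 0.56, Mapk1ip1l 0.22, Mapkapk3 0.21, Rps6ka5 0.22 and Ptprr 0.10. Spike-in centring gave Dusp11 -0.006, Dusp9 -0.0557, Dusp3 -0.058, Dusp26 -0.16, Dusp7 -0.20, Map3k1 -0.0046 and Map3k6 -0.20. The mean of probe sets gave Dusp10 0.10 and Mapk8ip2 0.10, and repeated quantile normalization Map3k7 0.11 and Mapk9 0.0737. Without both replicate 3 arrays Dusp26 was -0.0488, Map3k6 -0.0251 and Mapk4 0.0559. With 1 array left out, Dusp7 ranged from -0.0491 to 0.22, Dusp2 from -0.1927 to 0.0892 and Mapk9 from -0.0914 to 0.0809. All of these except Dusp28, Map4k5, Mapk1ip1l, Mapkapk3, Rps6ka5 and Ptprr had no call as reported.

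Without both replicate 3 arrays, Dusp15, Dusp28, Map3k2, Map4k5, Nlk, Rps6ka5 and Mapkapk5 lost their calls. Same-numbered arrays deviated together with correlations of 0.17, 0.004 and 0.15, and Gr1lo replicate 2 did not correlate best with its own number, so the numbers were not taken as pairs. Replicate 3 of both groups did share a high Xist level, at 10.95 in Gr1lo and 10.14 in Gr1hi. With the replicate number as a block, 16 kinases rose and 8 fell, 5 DUSP genes rose and 3 fell, and 38 pathway genes rose and 11 fell; Dusp8 and Dusp15 lost and Dusp22 and Mapk7 gained a call.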

Other observations

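Traf2, an adaptor of tumour necrosis factor receptors upstream of JNK, fell by 1.05 on the log2 scale (6.10 ± 0.11 in Gr1lo, 5.04 ± 0.24 in Gr1hi, SD, n = 3 each, limma adjusted p = 0.00128). Tab2, a partner of TAK1, rose by 0.51 (adjusted p = 0.000483). Etv5, an ETS factor, rose from 3.05 ± 0.18 to 4.46 ± 0.40 (adjusted p = 0.000314), whereas its relative Etv4 stood at 2.67 and 2.76, within the absent-transcript level. Of the Ras and Raf list, Spry2 and Spred1 fell, as given above. All these genes were named after their values were seen.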
